A study of Mus musculus with 6 samples.

Results

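The 47 genes described here encode the machinery that copies DNA, from the proteins that mark replication origins to the enzymes that join the new strands. They were taken by symbol from a list of replication genes that was drawn up with earlier results of these data known, although its rule uses no measured value, and all 47 were found among the 26286 genes of the count table. All 47 also passed the filter on low counts, which left 12275 genes to test. The study follows B progenitor acute lymphoblastic leukemia in a mouse model that allows Pax5, a transcription factor of B cell commitment, to be restored. Per the labels, the cells of every library came from 1 tri-transgenic leukemia, A024, and were sorted from the bone marrow of Rag1 knockout mice, which lack mature B and T cells of their own but keep NK cells. The untreated group was 3 mice with GFP-high cells. The other group was 3 mice fed doxycycline (dox) for 3 days, which the labels call Pax5 restoration, with GFP-mid cells, so the gate and the drug changed together. The sources used here give neither the construct, the promoters of the transgenes nor the age of the mice. No dox-treated control without Pax5 restoration was analysed here, and the replicates are mice carrying the same leukemia.

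A cell prepares to copy its DNA in G1, when the origin recognition complex (ORC), Cdc6 and Cdt1 load rings of Mcm2-7 onto DNA, a step called licensing, while geminin blocks Cdt1 later in the cycle. In S phase Cdc45 and the GINS complex join each ring to form the active helicase, and polymerases alpha, delta and epsilon, the sliding clamp PCNA, its loader RFC and the single-strand binding protein RPA carry the fork. Many of these genes are known targets of E2F transcription factors and are expressed most strongly around the G1 to S transition, whereas several ORC subunits are known to be made throughout the cycle.

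Total counts lay between 14185203 and 15612435 per library, and each of the 47 genes had at least 144 counts in every library. Levels are CPM, counts per 1000000 counts of a library after TMM scaling, and sets of 3 values follow replicates 1, 2 and 3. Pax5 itself measured 153.8, 93.5 and 105.2 CPM untreated and 227.2, 281.2 and 230.6 CPM after dox (log2 fold change 1.07, SE 0.17, adjusted p = 0.000695, edgeR quasi-likelihood test). All 10 B cell progenitor markers checked were present, led by Ighm and Vpreb1 in the untreated libraries, with a summed level of 6546 to 7041 CPM untreated and 11577 to 13050 CPM after dox. Each list of markers of other cells had a lower sum than the B cell progenitor list in every library. The 10 neutrophil genes, led by S100a9 and S100a8 in mean level after dox, summed to 90.0 to 116.2 CPM untreated and 115.7 to 537.1 CPM after dox. The 10 macrophage genes, led by Vcam1 and Cd68 in mean level after dox, summed to 6.91 to 12.6 CPM untreated and 29.3 to 38.0 CPM after dox. Of these, 8 of the 9 neutrophil and 7 of the 8 macrophage genes tested were called higher after dox. The T and NK cell markers stayed at or below 9.82 CPM in sum, with Cd3e and Cd8a at 0 in all libraries; most of the highest sum, in dox replicate 2, was the NK cell gene Klrb1c at 9.19 CPM. Of 3 tested genes of stromal and endothelial cells, 2 rose, namely Pecam1 and Col1a1, the latter from a mean of 0.80 to 1.77 CPM. All 10 listed genes of these cells summed to 94.96 to 103.3 CPM untreated and 130.03 to 161.2 CPM after dox. Nearly all of that sum was Pecam1, with Dcn at 0. Erythroid markers summed to 374.8 to 576.9 CPM and 395.1 to 511.3 CPM, nearly all of it Tfrc, which proliferating cells also express. Whether these other cells had a part in the results below was not tested.

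After 3 days of dox, 46 of the 47 replication genes were lower and 0 were higher, with Orc4 alone failing the test. For comparison, 53.6% of all genes tested were called, 26.6% lower and 27% higher. The median log2 fold change was −1.12, against 0.01 over all genes tested. The fall was 2-fold or more for 29 of the 47 (61.7%), a size that 3.86% of all genes tested reached in that direction. For 46 of the 47 genes every dox library lay below every untreated one. Of all genes tested, 62.2% had groups that did not overlap, and 31% had all dox libraries lower. Summed over the 47 genes, the level went from 9007 ± 551 CPM to 4274 ± 190 CPM (SD, n = 3 each), so that 47.4% of it remained. In bulk RNA, fewer cells making a transcript and less of it per cell cannot be told apart, and this holds for every level below.

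**Figure D1:**
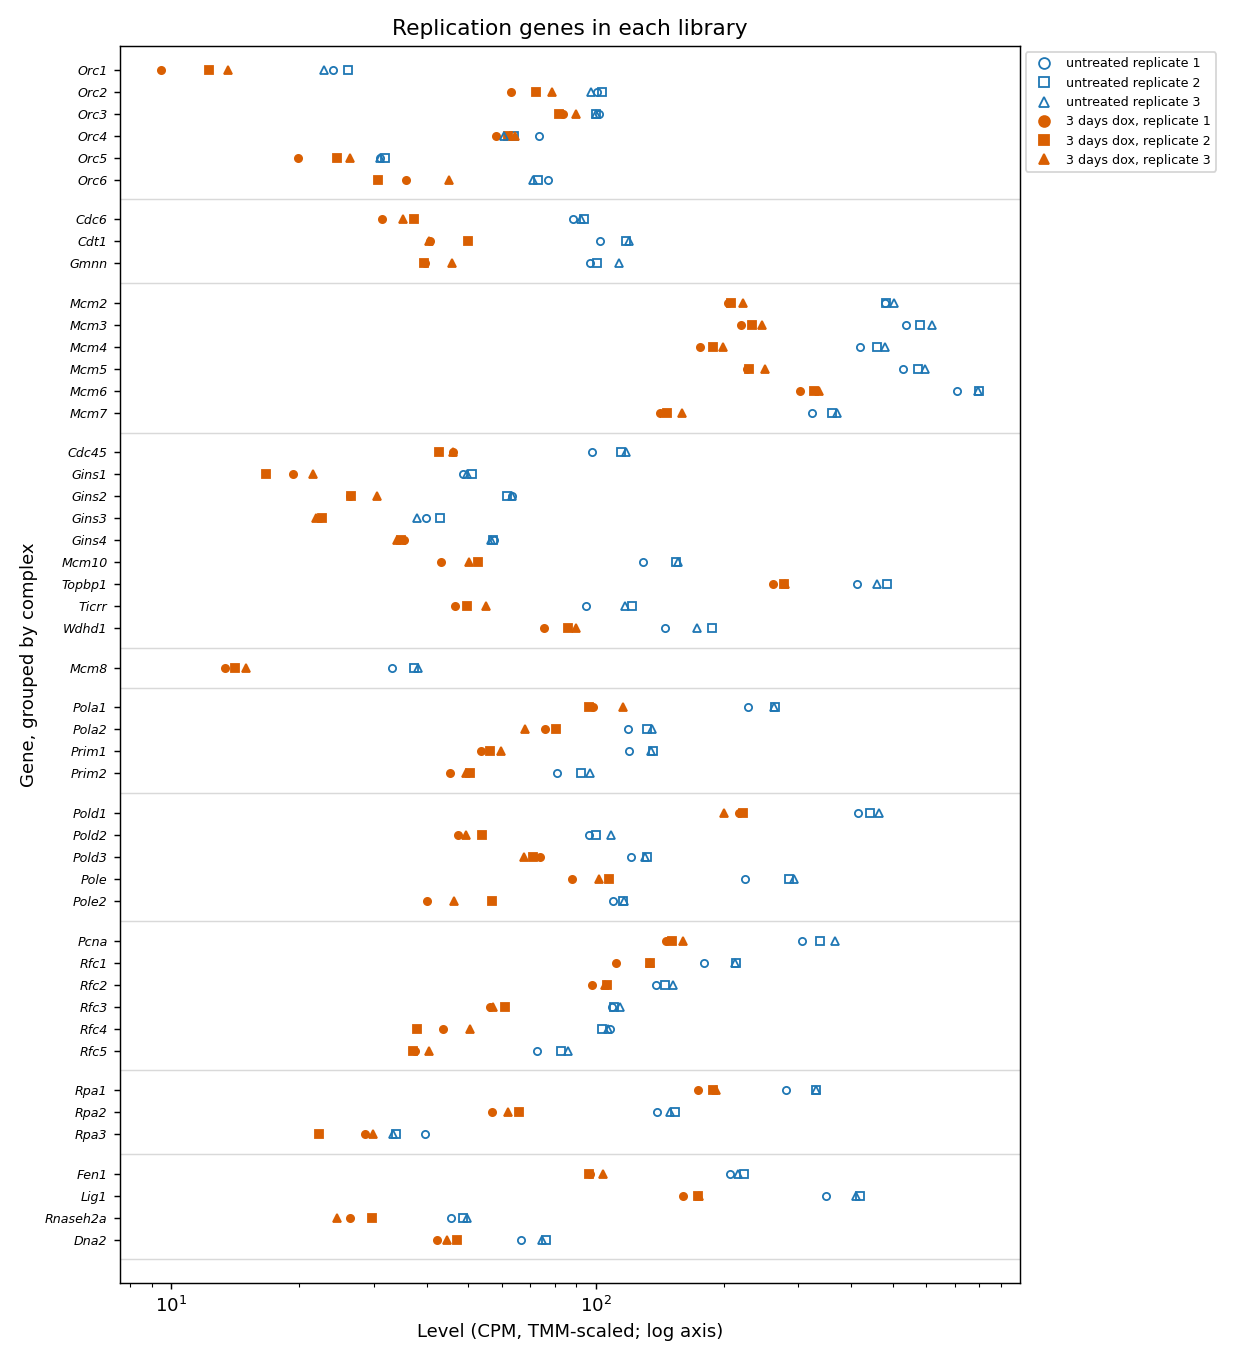
Level of each of the 47 replication genes in each library (CPM after TMM scaling, log axis), with untreated libraries as open and dox libraries as filled symbols, 1 symbol shape per replicate. For 46 genes all filled symbols lie to the left of all open ones, and those of Orc4 overlap.

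The depth of the fall differed between complexes. Median log2 fold changes were −1.37 for Cdc6, Cdt1 and geminin, −1.26 for Mcm2-7, −1.14 for Cdc45, GINS and the firing factors, −1.05 for polymerase alpha-primase, −1.05 for polymerases delta and epsilon, −0.999 for the clamp and its loader, −0.98 for the enzymes of Okazaki fragments, −0.76 for RPA and −0.45 for ORC. As summed levels, 38.9% remained for Cdc6, Cdt1 and geminin, 50.4% for Cdc45, GINS and the firing factors, 45.8% for polymerases delta and epsilon, 53.3% for the clamp and its loader, and 73.2% for ORC. These medians rest on 3 to 9 genes each and describe the genes listed; the differences between complexes were not tested as such. Across the 6 Mcm2-7 genes the log2 fold changes spanned 0.11, whereas the 6 ORC genes spanned 0.95. The mean SE of a single Mcm2-7 gene was 0.08, which is not the SE of a difference between genes.

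**Figure D2:**
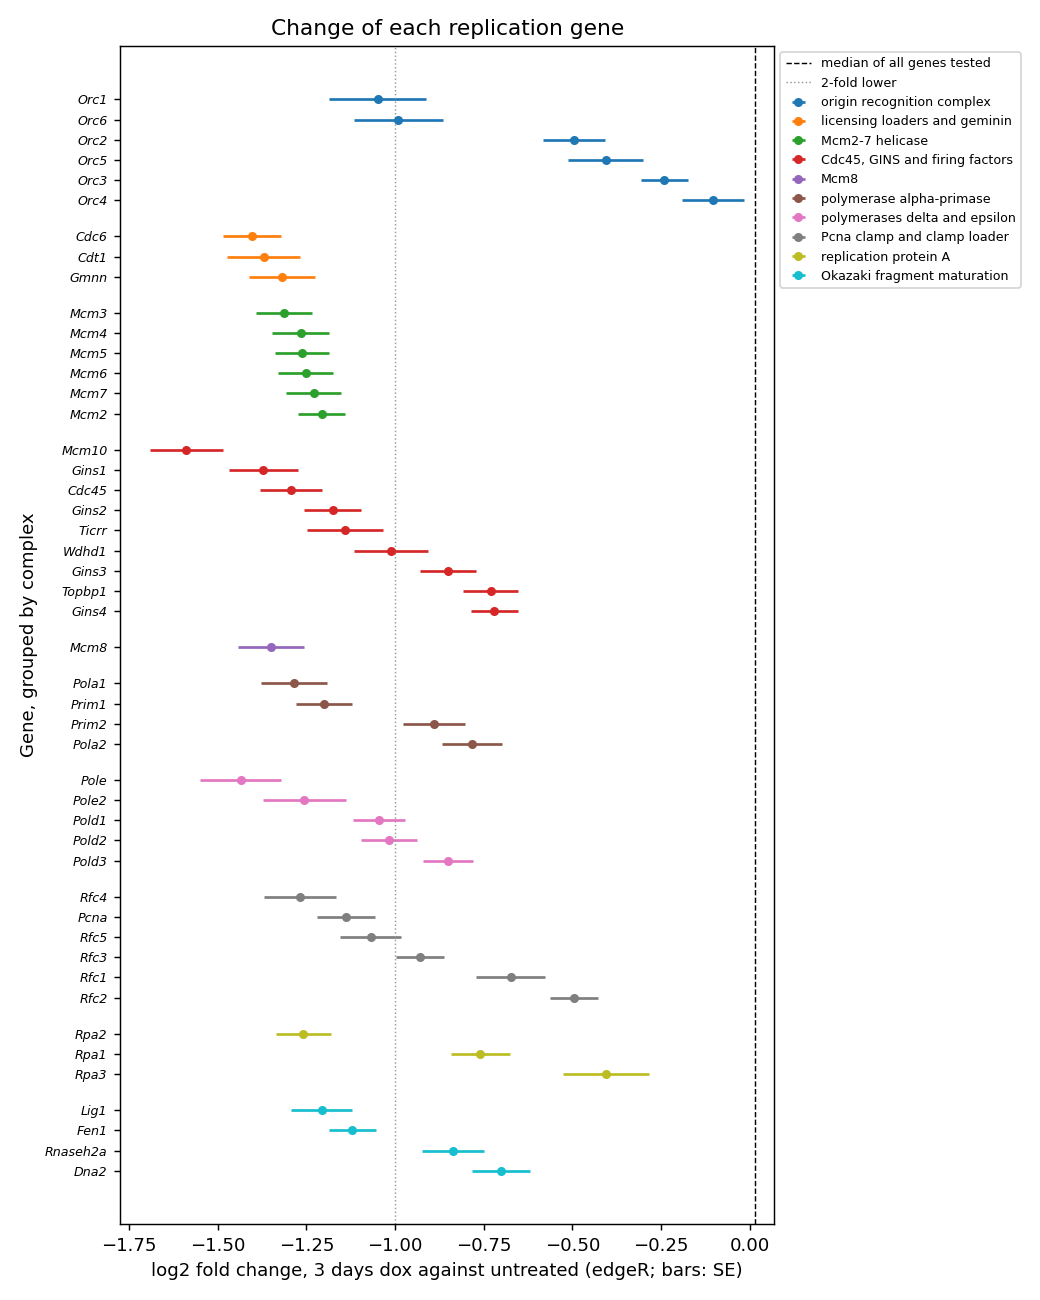
The log2 fold change of each gene after 3 days of dox (points, bars are SE from edgeR), sorted within its complex, with the median of all genes tested dashed and a 2-fold fall dotted. Mcm2-7 lie between −1.31 and −1.21, and ORC genes between −1.05 and −0.10.

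The origin recognition complex, which sits on DNA and starts licensing, held both strong and weak falls. Orc1, the ATPase subunit whose amount is known to vary over the cell cycle, measured 24.1, 26.2 and 22.9 CPM untreated and 9.48, 12.3 and 13.6 CPM after dox (log2 fold change −1.05, SE 0.14, adjusted p = 0.000227, edgeR). Orc6, the small subunit that is least tightly bound to the others, measured 77.2, 73.1 and 71.2 CPM against 35.7, 30.6 and 45.1 CPM (−0.99, SE 0.13). Neither gene had an overlap between groups, like 62.2% of all genes tested. The core subunits moved less, with Orc2 at −0.49 (SE 0.09), Orc5 at −0.41 (SE 0.11) and Orc3 at −0.24 (SE 0.07), all past the threshold (adjusted p = 0.00128, 0.0101 and 0.0127, edgeR). Orc4 measured 73.7, 64.1 and 60.9 CPM untreated and 58.2, 62.2 and 64.5 CPM after dox, a log2 fold change of −0.10 (SE 0.09, adjusted p = 0.351, edgeR). Its groups overlapped, since dox replicate 3 lay above both lower untreated libraries.

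Cdc6 and Cdt1, which bring the Mcm2-7 ring to ORC, and Gmnn, which encodes the Cdt1 inhibitor geminin, fell by nearly the same amount. Cdc6 measured 88.5, 93.7 and 92.5 CPM untreated and 31.5, 37.2 and 35.1 CPM after dox (−1.40, SE 0.08, adjusted p = 4.64e-06, edgeR). Levels of Cdt1 were 102.4, 117.5 and 119.5 CPM against 40.7, 49.98 and 40.6 CPM (−1.37, SE 0.10). Those of Gmnn were 96.9, 100.7 and 113.7 CPM against 39.6, 39.4 and 45.8 CPM (−1.32, SE 0.09). No dox library of any of the 3 genes reached an untreated one, which also held for 31% of all genes tested. The activator and the inhibitor of licensing both fell.

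The 6 genes of the Mcm2-7 ring, the core of the replicative helicase, all fell 2-fold or more and by similar amounts. Mcm3 fell the most, from 538.4, 579.6 and 619.4 CPM to 219.9, 233.5 and 246.0 CPM (−1.31, SE 0.08, adjusted p = 5.32e-06, edgeR). Mcm2 fell the least, from 480.3, 483.4 and 502.8 CPM to 204.5, 208.3 and 222.4 CPM (−1.21, SE 0.07, adjusted p = 3.69e-06, edgeR). Their SEs are not those of a difference between genes measured in the same libraries, and the gap between these ends was not tested. Mcm4 (−1.27), Mcm5 (−1.26), Mcm6 (−1.25) and Mcm7 (−1.23) lay between them, and 41.8% of the summed level of the ring remained.

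Per length of the gene, which makes levels of different genes comparable, Mcm6 was the most abundant ring gene and Mcm4 the least. Mcm6 had 264.2 and Mcm4 126.1 CPM per kb on average in untreated libraries, and 110.9 and 52.4 CPM per kb in dox libraries. The ratio of the highest to the lowest was 2.10 before and 2.12 after. The order from the top was Mcm6, Mcm3 and Mcm5, with Mcm4 last, in 6 of 6 libraries, whereas Mcm2 and Mcm7 exchanged places and cannot be ordered. In ORC, Orc1 was the lowest in 6 of 6 libraries, and Orc4 and Orc5 changed order between the groups, with Orc5 above Orc4 in every untreated and below it in every dox library.

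**Figure D3:**
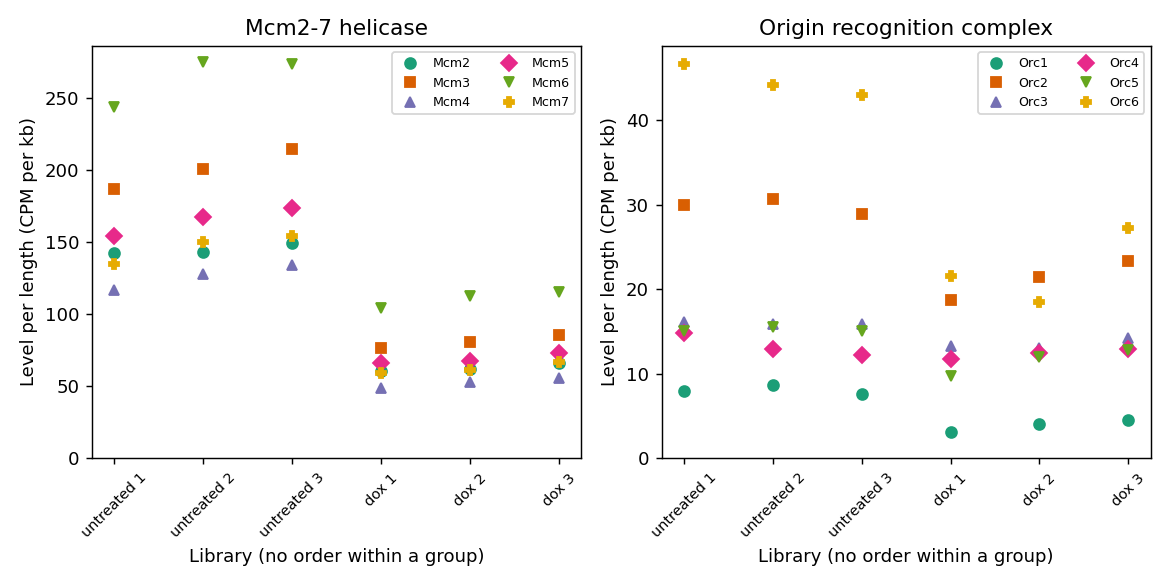
Level per length (CPM per kb) of the Mcm2-7 genes (left) and the ORC genes (right) in each library, 1 symbol per gene. The ring genes keep nearly the same order at a lower level after dox, with Mcm6 on top and Mcm4 last, while Orc6 and Orc2 move down toward Orc3, Orc4 and Orc5.

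The promoters of the 47 genes were searched for strings bound by E2F factors. These were TTCGCGC or its variant TTCCCGC, and likewise TTGGCGC or its variant TTGCCGC, on either strand. The windows run from 250 bases before to 50 bases after a gene's start and come from RefSeq on build GRCm38.p6, a later build than the mm9 of the counts, in which 39 of the 47 genes have an entry. At least 1 string was present for 25 of the 39 (64.1%), against 9.57% of all 32851 windows of that length and 19.9% of the 9103 tested genes with an entry. CCAAT boxes, also searched on either strand, were present for 24 of the 39 (61.5%), against 37.4% of all windows and 43.5% of the tested genes. A gene was counted if any of its windows held a match, whereas the shares of all windows count single windows. Only the shares of tested genes are therefore a like measure. Members with an E2F string had a median log2 fold change of −1.20 and those without of −1.004. For members with and without a CCAAT box the medians were −1.14 and −1.05. Tested genes with and without an E2F string had medians of −0.13 and 0.05. These differences were not tested. A match describes letters and is neither a bound site nor a cause.

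The 4 windows below belong to the ring and ORC genes with the deepest and the shallowest change, and are shown to let windows with and without a string be compared. Each is read 5′ to 3′ on the gene's strand, with E2F strings in capitals; those that overlap run together.
Mcm3 (chr1:20820263-20820562, minus strand): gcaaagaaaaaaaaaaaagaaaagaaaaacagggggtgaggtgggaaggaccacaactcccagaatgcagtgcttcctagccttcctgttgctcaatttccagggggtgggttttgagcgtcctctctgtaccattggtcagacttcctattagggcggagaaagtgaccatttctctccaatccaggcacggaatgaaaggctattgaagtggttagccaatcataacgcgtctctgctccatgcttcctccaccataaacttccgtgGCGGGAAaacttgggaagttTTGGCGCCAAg
Mcm2 (chr6:88898731-88899030, minus strand): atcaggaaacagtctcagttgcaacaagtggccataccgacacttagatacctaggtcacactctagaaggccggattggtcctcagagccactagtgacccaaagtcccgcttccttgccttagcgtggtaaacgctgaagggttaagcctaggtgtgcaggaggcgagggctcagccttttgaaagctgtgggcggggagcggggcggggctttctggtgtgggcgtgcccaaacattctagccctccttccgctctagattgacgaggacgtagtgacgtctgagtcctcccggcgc
Orc1 (chr4:108579204-108579503, plus strand): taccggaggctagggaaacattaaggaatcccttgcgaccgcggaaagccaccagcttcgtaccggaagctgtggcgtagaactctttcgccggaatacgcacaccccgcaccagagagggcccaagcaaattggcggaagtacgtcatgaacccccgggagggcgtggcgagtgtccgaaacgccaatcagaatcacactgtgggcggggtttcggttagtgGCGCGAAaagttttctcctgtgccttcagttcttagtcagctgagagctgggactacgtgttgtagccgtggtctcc
Orc4 (chr2:48950032-48950331, minus strand, the first of 3 listed windows): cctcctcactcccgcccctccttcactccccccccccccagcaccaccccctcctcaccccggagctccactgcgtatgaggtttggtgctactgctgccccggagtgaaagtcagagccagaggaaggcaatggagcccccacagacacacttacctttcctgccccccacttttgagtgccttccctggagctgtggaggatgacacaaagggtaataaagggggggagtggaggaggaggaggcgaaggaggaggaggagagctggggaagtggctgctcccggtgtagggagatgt
Mcm3 holds 3 strings just after the start, 2 of them overlapping on opposite strands, and Orc1 holds 1 that begins 27 bases before the start. The Mcm2 window holds 0, beside a fall close to that of Mcm3, and another listed window of Orc4 does hold 1. Mcm10, the gene with the deepest fall of all 47, has 0 of these strings in its window, beside 3 CCAAT boxes.

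The factors that turn a loaded ring into a moving fork fell over a wider range. Mcm10, which is needed to activate the helicase, measured 129.5, 154.2 and 156.1 CPM untreated and 43.2, 52.8 and 50.3 CPM after dox (−1.59, SE 0.10, adjusted p = 7.24e-06, edgeR). No other gene of the 47 fell as far, and 0.652% of all genes tested fell further. Cdc45, a helicase subunit, went from 110.3 ± 10.6 to 45.01 ± 1.97 CPM (SD, n = 3; −1.29, SE 0.09). Ticrr, also called Treslin, which helps load Cdc45, changed by −1.14 (SE 0.11), and Wdhd1, which ties polymerase alpha to the helicase, by −1.01 (SE 0.10). Topbp1, which acts at origin firing and in the DNA damage checkpoint, was abundant and fell less, from 413.2, 484.4 and 459.5 CPM to 261.7, 277.9 and 278.6 CPM (−0.73, SE 0.08).

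Within GINS, a complex of 4 subunits, Gins1 and Gins2 had larger falls in value than Gins3 and Gins4. Gins1 measured 48.7, 51.3 and 49.8 CPM untreated and 19.3, 16.8 and 21.6 CPM after dox (−1.37, SE 0.10), and Gins2 changed by −1.18 (SE 0.08). Gins4 measured 57.7, 57.4 and 56.6 CPM against 35.3, 34.9 and 34.1 CPM (−0.72, SE 0.07), and Gins3 changed by −0.85 (SE 0.08). All 4 were lower in every dox library, as were 31% of all genes tested, and had adjusted p of 3.54e-05 or less (edgeR). The difference between the subunits was not tested.

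Mcm8, a relative of the ring genes that works with Mcm9 in recombination repair and is not part of the Mcm2-7 ring, also fell. It measured 33.1, 37.2 and 38.2 CPM untreated and 13.4, 14.1 and 15.0 CPM after dox (−1.35, SE 0.09, adjusted p = 9.3e-06, edgeR). Per length it stood at 0.0646 ± 0.00119 of the mean of the ring genes before and 0.0606 ± 0.000121 after (SD, n = 3). Its partner Mcm9 measured 34.7, 41.8 and 40.0 CPM against 31.6, 37.2 and 37.4 CPM and did not pass (−0.14, SE 0.10, adjusted p = 0.276, edgeR). The difference between these known partners was not tested.

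Polymerase alpha-primase, which lays down the RNA-DNA primers, fell in all 4 subunits, with larger values for both catalytic ones. Pola1, the DNA polymerase, measured 228.4, 265.0 and 263.4 CPM untreated and 98.6, 96.3 and 115.8 CPM after dox (−1.28, SE 0.09). Prim1, the primase, changed by −1.20 (SE 0.08) and its large partner Prim2 by −0.89 (SE 0.09). Pola2, the regulatory subunit, measured 119.0, 132.2 and 135.6 CPM against 75.9, 80.7 and 68.1 CPM (−0.78, SE 0.09). All 4 passed the test, with adjusted p of 7.91e-05 or less (edgeR).

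Among the polymerases that extend the strands, Pole, the catalytic subunit of the leading strand enzyme, fell the most. It measured 225.3, 284.7 and 292.6 CPM untreated and 87.9, 107.3 and 101.5 CPM after dox (−1.44, SE 0.11, adjusted p = 1.61e-05, edgeR). Pole2, its second subunit, changed by −1.26 (SE 0.12). Polymerase delta, which makes the lagging strand, changed by −1.05 (SE 0.07) for the catalytic Pold1 and −1.02 (SE 0.08) for Pold2. The accessory subunit Pold3 measured 121.3, 132.2 and 130.5 CPM against 74.0, 71.2 and 67.7 CPM (−0.85, SE 0.07), the shallowest fall of these 5 genes.

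Pold4, the small accessory subunit of polymerase delta, which was not among the 47 genes, rose. It measured 47.9, 43.5 and 41.4 CPM untreated and 96.6, 102.7 and 89.4 CPM after dox (1.12, SE 0.09, adjusted p = 1.33e-05, edgeR). Its groups did not overlap, like those of 62.2% of all genes tested. Transcripts of this one enzyme changed in opposite directions.

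Pcna, the sliding clamp that holds polymerases on DNA, fell from 305.9, 338.3 and 366.3 CPM to 146.8, 151.5 and 160.8 CPM (−1.14, SE 0.08, adjusted p = 1.05e-05, edgeR). Per length it was the most abundant gene of this group, at 267.3 CPM per kb untreated and 121.4 CPM per kb after dox. Of its loader, the subunits that other clamp loaders share moved unevenly. Rfc4 measured 108.2, 103.7 and 107.0 CPM untreated and 43.6, 37.9 and 50.7 CPM after dox (−1.27, SE 0.10), while Rfc2 measured 138.7, 145.7 and 152.1 CPM against 98.2, 106.3 and 104.9 CPM (−0.50, SE 0.07). Rfc5 changed by −1.07 (SE 0.09), Rfc3 by −0.93 (SE 0.07) and Rfc1, the large subunit that defines this loader, by −0.67 (SE 0.10). Each of the 6 genes fell, with adjusted p of 0.000409 or less (edgeR).

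RPA coats single-stranded DNA as a trimer, and its 3 genes fell by different amounts. Rpa2, the subunit known to be phosphorylated under replication stress, measured 139.3, 154.1 and 150.0 CPM untreated and 57.1, 66.1 and 62.2 CPM after dox (−1.26, SE 0.08). The large DNA-binding subunit Rpa1 changed by −0.76 (SE 0.08). Rpa3, the smallest subunit, measured 39.7, 34.0 and 33.4 CPM against 28.6, 22.3 and 29.8 CPM (−0.40, SE 0.12, adjusted p = 0.0189, edgeR). Its fall was not called without untreated replicate 1, the highest library (−0.32, adjusted p = 0.0695, edgeR).

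The enzymes that finish Okazaki fragments, the short pieces of the lagging strand, all fell. Lig1, the ligase that seals them, measured 349.1, 419.6 and 409.8 CPM untreated and 161.0, 174.5 and 175.1 CPM after dox (−1.21, SE 0.09). Fen1, the flap nuclease, changed by −1.12 (SE 0.07) and Rnaseh2a, the catalytic subunit of the enzyme that removes RNA from DNA, by −0.84 (SE 0.09). Dna2, a nuclease and helicase for long flaps, measured 66.6, 76.3 and 74.7 CPM against 42.3, 47.2 and 44.6 CPM (−0.70, SE 0.08, adjusted p = 0.000121, edgeR).

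**Figure D4:**
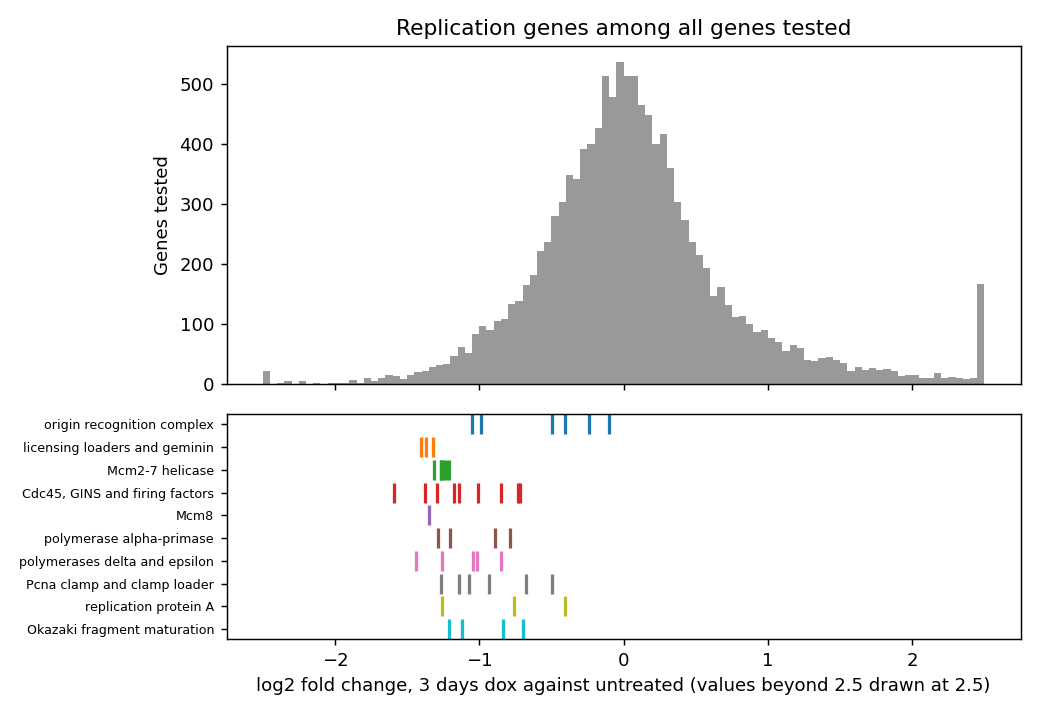
Top, the number of genes tested in each bin of log2 fold change; bottom, the position of each replication gene on the same axis, by complex; values beyond 2.5 in either direction are drawn at 2.5. Of the 47 genes, 31 lie among the deepest 5% of all genes tested, and Orc4 at −0.10 lies nearest to 0.

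In the wider set, 31 of the 47 genes were among the deepest 5% of all genes tested. Mki67, the proliferation marker that encodes Ki-67, changed by −0.98 (SE 0.11), and 30 of the 47 had a larger fall in value. At the other end, 6 genes had a log2 fold change above −0.5, namely Rfc2, Orc2, Orc5, Rpa3, Orc3 and Orc4. The libraries of a group were also ordered alike for many of these genes. Untreated replicate 1 was the lowest of its group for 37 of the 47 (78.7%), against 38.6% of all genes tested, and dox replicate 1 was the lowest of its group for 30 (63.8%), against 30.0%. Dox replicate 1 also held the highest neutrophil sum, 537.1 CPM, and the median log2 fold change of the 47 genes was −1.09 without it. That fit does not take out other cells, and their part was not tested. Dox replicate 3 had a neutrophil sum of 254.1 CPM, against at most 116.2 CPM untreated. The macrophage sum was 29.3 to 38.0 CPM over the dox libraries, against 6.91 to 12.6 CPM untreated.

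Ratios between genes within a library, taken per length, do not depend on scaling. Of 9 ratios compared, 4 did not overlap between groups, and each had the smallest p that 3 libraries against 3 allow (exact two-sided permutation p = 0.1, adjusted over the 9 ratios p = 0.225), so none can pass the threshold in this design. Orc1 to Orc2 went from 0.267, 0.283 and 0.262 to 0.168, 0.189 and 0.194, a log2 difference of −0.56 (SE 0.07). Pcna to Rfc1, clamp to the large loader subunit, went from 6.37, 5.93 and 6.44 to 4.91, 4.23 and 4.48, a difference of −0.46 (SE 0.07). Ratios of Pcna to the other loader subunits were not taken. Pcna changed by −1.14, against −1.27 for Rfc4, −1.07 for Rfc5, −0.93 for Rfc3 and −0.50 for Rfc2. Pold1 to Pole, lagging to leading strand enzyme, went from 3.82, 3.23 and 3.30 to 5.15, 4.30 and 4.12, a difference of 0.39 (SE 0.12), so that Pole made up less of the pair after dox. The ratio of Mcm8 to the ring genes differed by −0.09 (SE 0.02).

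The other 5 ratios overlapped between groups. Cdt1 to Gmnn was 0.471, 0.520 and 0.469 in untreated and 0.459, 0.566 and 0.395 in dox libraries, a log2 difference of −0.05 (SE 0.16, exact permutation p = 0.8). This ratio of licensing factor to inhibitor varied more among dox libraries than between the group means. Mcm2 to Mcm7 differed by 0.02 (SE 0.05), Pola1 to Prim1 by −0.09 (SE 0.05), Rfc1 to the mean of Rfc2 to Rfc5 by 0.21 (SE 0.09) and Rpa1 to Rpa3 by −0.34 (SE 0.22), with exact permutation p of 0.2 to 0.7 (0.257 to 0.8 for all 5 ratios after adjustment over the 9).

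**Figure D5:**
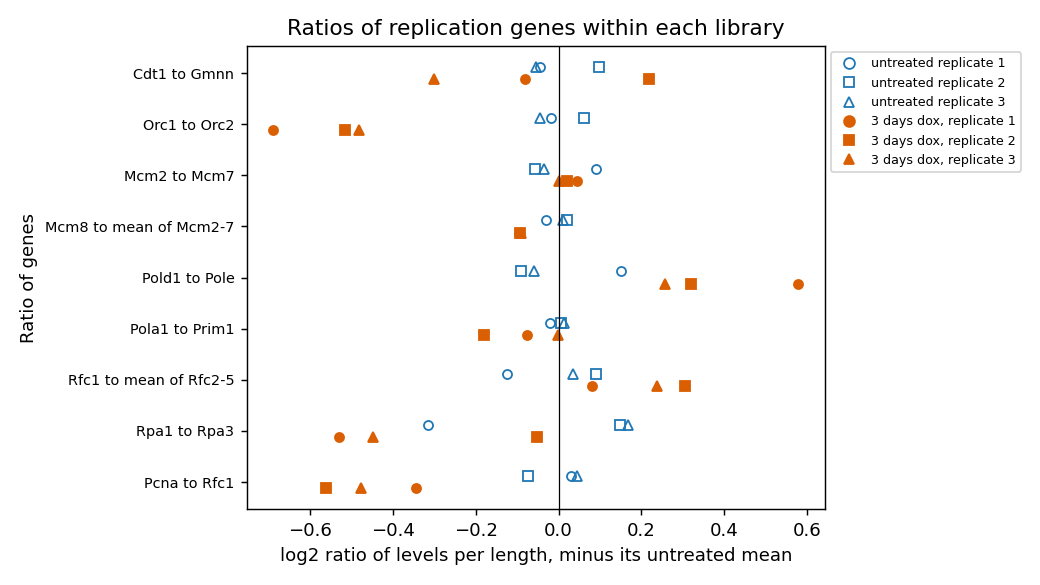
The log2 ratio of levels per length of paired replication genes in each library, minus the untreated mean of that ratio (open symbols untreated, filled symbols dox). Groups are apart for Orc1 to Orc2, Mcm8 to Mcm2-7, Pold1 to Pole and Pcna to Rfc1, and overlap for the other 5.

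Of 36 further genes of DNA replication that are not among the 47, 32 fell, 2 rose (Pold4 and Asf1a) and 2 did not pass (Mcm9 and Top1), with a median log2 fold change of −0.83. Of all genes tested, 26.6% were called lower and 27% higher. The deepest falls were those of Timeless, which protects forks (−1.55, SE 0.11), Dtl, which directs the destruction of Cdt1 in S phase (−1.43, SE 0.11), and Chtf18, part of an alternative clamp loader (−1.42, SE 0.10). Cdc7, the kinase that fires licensed origins, changed by −1.32 (SE 0.08) and its activator Dbf4 by −0.80 (SE 0.11). Asf1a, a histone chaperone, rose from 70.6, 61.0 and 55.4 CPM to 101.1, 81.3 and 124.2 CPM (0.71, SE 0.15, adjusted p = 0.0031, edgeR), whereas its paralog Asf1b, the form known from proliferating cells, changed by −0.84 (SE 0.07). Top1, the topoisomerase that acts throughout the cycle, stood at −0.10 (SE 0.08, adjusted p = 0.3, edgeR), and Top2a, which peaks before mitosis, changed by −1.06 (SE 0.12). The fall of Lrwd1, an ORC-associated gene (−0.20, SE 0.07, adjusted p = 0.0314, edgeR), was not called without untreated replicate 2 or 3, without any one of the 3 dox libraries, or with upper-quartile scaling (adjusted p = 0.0506 to 0.116, edgeR).

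Genes that start within 1000 bases of a replication gene and run the other way were looked up to compare changes at a shared start region. Among RefSeq starts, 13 of the 39 genes had such a neighbour, and of the 12 neighbours tested 3 were lower, 3 were higher and 6 did not pass, with a median log2 fold change of 0.01. These counts are close to those of all genes tested, of which 26.6% were called lower, 27% higher and 53.6% in either direction. Cdc45 fell by 1.29 on the log2 scale while Ufd1, which starts 322 bases away, stood at 0.05 (SE 0.07, adjusted p = 0.563, edgeR). Mcm7 (−1.23) and Ap4m1 (−0.02, SE 0.11) formed a like pair, at 138 bases. Wdhd1 (−1.01) lies beside Socs4, which rose (0.27, SE 0.09, adjusted p = 0.0299, edgeR). Also higher were Mbd5, 241 bases from Orc4 (0.78, SE 0.09, adjusted p = 0.000107, edgeR), and Umad1, 147 bases from Rpa3 (0.52, SE 0.08, adjusted p = 0.000638, edgeR). Orc4 itself stood at −0.10 and Rpa3 at −0.40. The values of Orc3 and its neighbour Rars2 were −0.24 and −0.28, and those of Orc1 and Prpf38a −1.05 and −0.32. These differences within pairs were not tested.

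Some counts carry a limit of assignment. The spans of 15 of the 47 genes overlap another gene of the table in RefSeq, among them Orc1, Orc4, Mcm7, Cdc45 and Lig1, and without a stated strand setting reads there cannot be assigned with certainty. The span of Orc4 overlaps that of Mbd5, which rose after dox (log2 fold change 0.78). Whether this bears on the value of Orc4 was not tested. Pcna and Topbp1 have named pseudogenes that could take or give reads.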

How the data were processed

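RNA sequencing libraries of sorted leukemia cells were deposited as whole-number read counts per Entrez gene, with a gene length in bases. Per the submitters' processing notes the authors used CASAVA 1.8.2, featureCounts and genome build mm9; aligner, annotation and strandedness: not given in the sources used here. The 6 per-sample files held the same counts as the series table. Of 26286 identifiers, 24176 matched a RefSeq symbol (GRCm38.p6). Genes were filtered with filterByExpr (minimum count 10), scaled by TMM and compared between 3 untreated and 3 dox libraries without covariates in edgeR 4.0.16 (quasi-likelihood F-test; R 4.3.3), with Benjamini-Hochberg adjustment over 12275 genes (threshold 0.05). All adjusted p-values and log2 fold changes are from that fit unless another is named. SE is the log2 fold change divided by the square root of F. P-values measure the spread between mice with 1 leukemia. The script was tested on simulated counts.

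The 47 genes, the lists and the alternatives were chosen with earlier results of these data known. All 47 genes could be named; values in every library were set for the deepest and highest change of each complex. Of other replication genes, the rule took the 3 deepest and 3 highest and those behind small counts; Cdc7, Dbf4, Asf1b, Top2a, Lrwd1 and the neighbour pairs were chosen after their values were seen. Alternatives were other scalings and filters, DESeq2 1.42.0, limma 3.58.1 voom, a replicate block and leaving out each library.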

Additional observations from a re-analysis of the deposited data

How the results depend on the processing

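The count of replication genes lower after dox was 45 to 46 over the fit and its 14 alternatives (3 other scalings, 2 other filters, the DESeq2 test, limma voom, the replicate block and 6 fits each without 1 library), the count higher was 0 in all of them, and their median log2 fold change ran from −1.18 to −1.08. Of the further replication genes, 31 to 32 were lower and 2 higher. Over all genes tested, 2693 to 3534 were higher and 2791 to 3441 lower. No single gene among these lists changed direction, and Rpa3 and Lrwd1 alone lost their call. Leaving out 1 library moved the log2 ratio of Cdt1 to Gmnn between −0.191 and 0.068 (0.068 without dox replicate 3) and that of Mcm2 to Mcm7 between −0.00652 and 0.0673 (−0.00652 without untreated replicate 2); the cause was not tested. With 2 of the 4 E2F strings, 59.0% of the 39 members with an entry held one, against 14.5% of tested genes and 6.81% of all windows (64.1%, 19.9% and 9.57% with all 4). Libraries of the same replicate number deviated together for numbers 1 and 2 (r = 0.31 and 0.29) but not 3 (r = −0.04). Replicate 1 of one group and replicate 2 of the other deviated in opposite directions (r = −0.34 and −0.28). Deviations from a mean of 3 libraries depend on each other, so these values cannot decide whether the numbers pair the samples. With the replicate block 46 of the 47 genes were lower, and 3434 of all genes were higher and 3356 lower.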
